A study of Mus musculus with 11 samples.

Results

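The chromatin described here lies around the transcription starts of 5 genes that mark GABA-releasing interneurons, namely Gad1, Gad2, Slc32a1, Sst and Pvalb. Members are the ATAC-seq peaks within 50 kb on either side of each start in the mouse genome build mm9, with starts given to the nearest kb. The peaks of all 11 libraries were merged into regions wherever they shared at least 1 bp. The 5 windows held 95 peaks in 26 of the 128823 regions of the whole series. When the 25145 best-scoring peaks of each list were taken, the number in the shortest list, the windows held 47 peaks in 8 of 59298 regions.

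Accessibility was measured in microdissected dentate gyrus of C57BL/6 mice aged 8 weeks, in a study of chromatin after neuronal activation. Every mouse carried an adeno-associated virus with an shRNA, and 1 library was made from each mouse. The groups were shRNA-cFos E1 (2 libraries), shRNA-cFos E0 (3), shRNA-Ctrl E1 (3) and shRNA-Ctrl E0 (3). shRNA-cFos targets c-Fos, a subunit of the activity-induced transcription factor AP-1, and shRNA-Ctrl is the control shRNA. The labels do not spell out E1 and E0, and the deposited E0 lists are named sham. The promoter of the shRNA, the cells it reached and the degree of knockdown are not given in the sources used here. Lists held 25145 to 78349 peaks on chromosomes 1 to 19 and X, and the 3 longest were shRNA-Ctrl E1 replicates 1 and 3 and shRNA-cFos E0 replicate 2. The names of shRNA-Ctrl E1 replicates 1 and 3 also lack a word that the other 9 list names carry. Read depth is unknown, so a missing peak means that none was called at the depth of that library. The tissue could not be checked against granule neuron or glial markers, because no mm9 annotation was at hand.

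Interneurons are the inhibitory minority of the dentate gyrus, whose main cells are the glutamate-releasing granule neurons. Gad1 and Gad2 encode the enzymes that make GABA from glutamate, and Slc32a1 encodes the transporter that loads GABA into synaptic vesicles. Sst encodes the neuropeptide somatostatin, which marks dendrite-targeting interneurons of the hilus. Pvalb encodes parvalbumin, a calcium buffer of fast-spiking basket cells. In rats, granule neurons are known to raise Gad1 expression after seizures. In bulk tissue, fewer interneurons and less open chromatin per interneuron cannot be told apart.

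Promoter sequences are shown for the gene whose start was most often called open, Gad1, and for both genes whose start was called in no library, Slc32a1 and Sst. They come from RefSeq on build GRCm38.p6, 250 bases before to 50 bases after the start, 5′ to 3′ on the strand of the gene. Capitals mark matches on either strand to AP-1 (TGANTCA), the cAMP response element CRE (TGACGTCA), the TATA motif (TATAAA) or the GC box (GGGCGG), and no 2 matches overlapped.
Gad1: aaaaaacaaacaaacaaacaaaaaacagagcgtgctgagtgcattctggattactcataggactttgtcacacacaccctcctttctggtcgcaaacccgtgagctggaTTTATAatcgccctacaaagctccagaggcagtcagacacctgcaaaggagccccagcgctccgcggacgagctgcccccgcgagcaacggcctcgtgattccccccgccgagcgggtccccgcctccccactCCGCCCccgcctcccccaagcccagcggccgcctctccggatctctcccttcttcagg
Slc32a1: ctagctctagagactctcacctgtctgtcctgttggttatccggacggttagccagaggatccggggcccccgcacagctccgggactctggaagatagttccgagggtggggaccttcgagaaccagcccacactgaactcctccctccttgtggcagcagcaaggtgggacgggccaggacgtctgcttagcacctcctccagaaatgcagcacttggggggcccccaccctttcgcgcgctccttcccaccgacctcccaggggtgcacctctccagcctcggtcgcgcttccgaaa
Sst: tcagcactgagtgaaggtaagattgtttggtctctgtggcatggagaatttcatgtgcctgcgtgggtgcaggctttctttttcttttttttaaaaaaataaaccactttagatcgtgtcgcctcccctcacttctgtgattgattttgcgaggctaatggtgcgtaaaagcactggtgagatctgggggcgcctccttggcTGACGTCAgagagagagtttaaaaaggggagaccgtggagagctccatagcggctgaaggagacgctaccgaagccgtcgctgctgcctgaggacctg

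All 5 genes had a promoter in the RefSeq table, with 2 entries for Pvalb. The AP-1 letters occurred in none of the 6 entries and in 7.81% of the 32851 promoters of the table. The CRE in the Sst promoter began 48 bases before the start, and 1.79% of all promoters held one. The Gad1 promoter held the TATA letters on the opposite strand, 141 bases before the start (13.6% of all promoters), and a GC box 8 bases before it (35.7%). Gad2, Slc32a1 and Pvalb promoters matched none of the motifs. A match describes the letters and not a bound factor. The Gad1 promoter had the highest observed-to-expected CpG ratio of the 6 entries, 0.849, above that of 83.1% of promoters. The ratio was 0.707 for Sst, 0.574 for Slc32a1, 0.543 for Gad2 and 0.732 and 0.199 for the 2 Pvalb entries, against a median of 0.384.

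None of the 5 starts was called open in more than 5 of the 11 libraries, and Slc32a1 and Sst had no peak within 1 kb of the start in any. How often gene starts in general were called was not computed, for lack of an mm9 annotation. Whether these starts were called less often than others is therefore not known. At the Gad1 start, 5 libraries had a peak: both of shRNA-cFos E1, 1 of 3 of shRNA-cFos E0, 2 of 3 of shRNA-Ctrl E1 and none of shRNA-Ctrl E0. By state, these were 4 of 5 E1 libraries and 1 of 6 E0 libraries. The 5 libraries were the 5 with the longest lists, 40627 peaks or more, while the longest list without the peak held 35474. The part of list length in these calls was not tested. The merged region lay at chr2:70399054-70402518 (3465 bp). Its calls did not pass the test for E1 against E0 (difference 0.667 in the share of libraries, exact permutation p = 0.08; adjusted over all regions, p = 1.0). In that test 0.0% of all regions passed after adjustment and 3.51% had an unadjusted permutation p under 0.05. The smallest p the test allows is 0.005, so a region can pass only if many regions share so low a p. Not passing therefore says little about any 1 region, here and below.

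The peaks across the Gad1 start had score ranks from above the middle of the list to near its end. In shRNA-cFos E1 they ranked 32139 of 48262 in replicate 1 and 29463 of 40627 in replicate 2, and in shRNA-cFos E0 replicate 2 the rank was 67433 of 74432. A second peak of that library in the same region, 1248 bp from the start, ranked 55088. In shRNA-Ctrl E1 the ranks were 33881 of 78349 in replicate 1 and 25951 of 75908 in replicate 3, both above the middle of the list. None was among the 25145 highest-scoring peaks, so the Gad1 start was called in no library at equal list length. The rank of shRNA-Ctrl E1 replicate 3 was the nearest to that limit. The peaks were 2031 and 1232 bp wide in shRNA-cFos E1, 682 bp in shRNA-cFos E0 replicate 2, and 1137 and 2620 bp in shRNA-Ctrl E1.

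**Figure D1:**
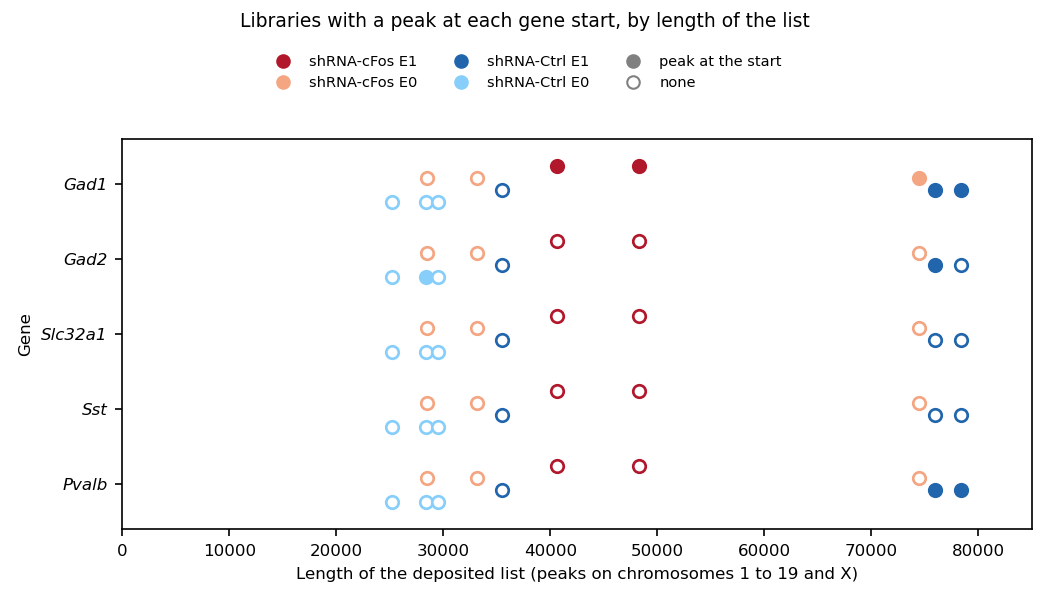
Libraries with a peak within 1 kb of each gene start (filled) or without one (open), against the length of the deposited list in peaks, coloured by group and set apart vertically by group. The Gad1 start is filled in the 5 longest lists, of 40627 peaks or more, and Slc32a1 and Sst are filled in none.

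The Gad2 start was called in shRNA-Ctrl E1 replicate 3 and in shRNA-Ctrl E0 replicate 2, in the region chr2:22477634-22478145. Its peak ranked 52207 of 75908 in the E1 library and 15004 of 28391 in the E0 library. That E0 peak was the 1 peak at any of the 5 starts that stayed at equal list length. The Pvalb start was called in shRNA-Ctrl E1 replicates 1 and 3, in the region chr15:78035802-78036118. Both peaks stood near the end of the lists, at ranks 74379 of 78349 and 73466 of 75908. These were the 2 longest lists of the series, so the length of the list and the group cannot be told apart for Pvalb. RefSeq places 2 Pvalb starts more than 1 kb apart in GRCm38, and which of them the mm9 start stands for was not settled. The calls hold for the start used here, and the next nearest Pvalb peak in any library lay 23.5 kb from it.

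The regions of the windows that were called most often lay away from the starts: 4 regions were called in all 11 libraries as deposited. They made up 15.4% of the 26 regions, against 9.16% of regions in the whole series, and 36.2% of 100 kb windows that hold any region hold 1 or more of that kind. One each lay in the windows of Gad1, Gad2, Slc32a1 and Pvalb. The Sst window had none.

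The Gad1 window held a region at chr2:70429890-70431011, 30.5 kb downstream of the start (distances are to the midpoint of a region), that was called in all 11 libraries as deposited and in 8 at equal list length. At equal length it was called in 2 of 5 E1 libraries and in 6 of 6 E0 libraries. Score ranks were 14851 and 28511 in shRNA-cFos E1, and 14863, 18047 and 20842 in shRNA-cFos E0. They were 29148, 21136 and 30574 in shRNA-Ctrl E1, against 21125, 12813 and 18335 in shRNA-Ctrl E0. By rank number, all 3 shRNA-Ctrl E1 peaks came after all 3 shRNA-Ctrl E0 peaks, though ranks 21136 and 21125 were nearly equal. Under shRNA-cFos the states overlapped. These ranks belong to lists of unlike length. The 3 peaks lost at equal length had ranks between 28511 and 30574, not far beyond 25145. The difference in the share of libraries, -0.583, did not pass the test (exact permutation p = 0.08; adjusted over all regions, p = 0.951). At equal length 0.0% of regions passed after adjustment and 3.8% had an unadjusted permutation p under 0.05. The scores themselves were 172.75 and 73.76 in shRNA-cFos E1, 113.14, 217.77 and 66.03 in shRNA-cFos E0, 144.05, 82.44 and 143.93 in shRNA-Ctrl E1, against 57.2, 100.48 and 80.43 in shRNA-Ctrl E0. By score, with no correction for list length, the order of the shRNA-Ctrl states was thus not that of the ranks. Nor was it by percentile of the score within its own list (100 being the top). That was 62.8, 40.4 and 59.7 in shRNA-Ctrl E1, against 16.0, 54.9 and 37.9 in shRNA-Ctrl E0, where the states overlapped.

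**Figure D2:**
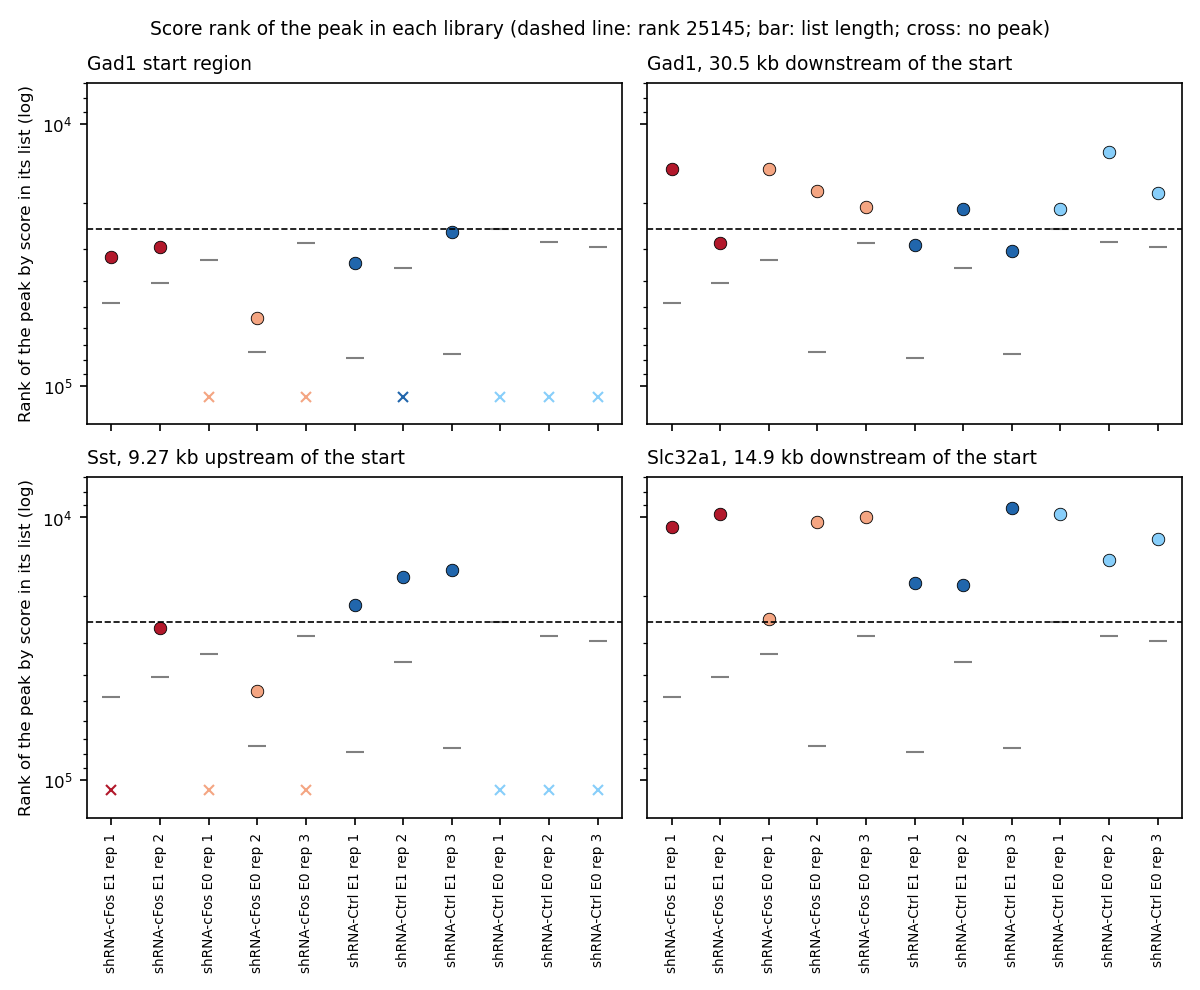
Rank by score within its list (log axis, best at the top) of the best-scoring peak of 4 regions in each of the 11 libraries; the dashed line is rank 25145, grey bars are list lengths and crosses mark libraries with no peak. The Sst region lies above the line in the 3 shRNA-Ctrl E1 libraries, and the Gad1 region 30.5 kb downstream lies below it in 3 of 5 E1 libraries.

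The Gad2 window held the highest-scoring region, at chr2:22442570-22446215 (3646 bp), 33.6 kb upstream of the start. Its score was 3100, the highest score used, in all 11 lists, where 4 to 7 peaks per list reached that score. Peaks there were 3339 to 3552 bp wide, and 1.42% of the 11796 regions called in all libraries were at least as wide as the merged region. In GRCm38 the nearest coding gene on that side of Gad2 is Myo3a, a myosin gene. No difference between groups can be read from a score at the top of the scale.

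The Slc32a1 window held a region at chr2:158450271-158451595, 14.9 kb downstream of the start. The coding neighbour of Slc32a1 on that side in GRCm38 is Actr5, which encodes a subunit of the INO80 chromatin remodeller. Score ranks were 10854 and 9734 in shRNA-cFos E1, and 24426, 10392 and 9950 in shRNA-cFos E0. They were 17861, 18042 and 9177 in shRNA-Ctrl E1, against 9681, 14493 and 12134 in shRNA-Ctrl E0. The groups overlapped, and all 11 peaks stayed at equal list length, with shRNA-cFos E0 replicate 1 the closest to the limit. The nearest peak to the Slc32a1 start belonged to this region in 11 of 11 libraries, at 14.3 to 14.5 kb.

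The Pvalb window held a region at chr15:78004090-78005219, 31.3 kb downstream of the start. The coding neighbour of Pvalb on that side in GRCm38 is Ift27, a gene of transport in cilia. The score percentile places a peak among the scores of its own list, 100 being the top, with ties averaged. It was 92.0 and 95.1 in shRNA-cFos E1, and 91.1, 99.2 and 93.1 in shRNA-cFos E0. It was 95.3, 88.8 and 95.7 in shRNA-Ctrl E1, against 89.4, 91.0 and 91.2 in shRNA-Ctrl E0. The E1 and E0 values overlapped under both shRNAs.

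The Sst window held the region that separated groups. It lay at chr16:23899948-23900600 (653 bp), 9.27 kb upstream of the start. As deposited it was called in 1 of 2 shRNA-cFos E1 libraries, 1 of 3 shRNA-cFos E0 libraries, 3 of 3 shRNA-Ctrl E1 libraries and 0 of 3 shRNA-Ctrl E0 libraries. At equal list length the 3 shRNA-Ctrl E1 libraries kept it and none of the other 8 did. It was then the 1 region of 8 called in all shRNA-Ctrl E1 and no shRNA-Ctrl E0 libraries, a pattern of 3.51% of all regions. As deposited, 1 of 26 regions met that pattern, against 6.04% of all regions, so the count was no higher than that share. The Sst region was also the 1 of 8 called in no shRNA-cFos E1 and in all shRNA-Ctrl E1 libraries. Of all regions, 1.08% met this second pattern (1.59% as deposited, where 0 of 26 regions did).

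The score ranks at the Sst region were 21628, 16907 and 15898 in shRNA-Ctrl E1 replicates 1 to 3, with percentiles of 72.4, 52.3 and 79.1. The peak in shRNA-cFos E1 replicate 2 ranked 26508 of 40627, just past the limit of 25145. The peak in shRNA-cFos E0 replicate 2 ranked 45940 of 74432. With lists shortened to 20000 or to 15000 peaks, the region no longer met either pattern. With 50% of the region required to be covered, it met neither, since the peak of shRNA-Ctrl E1 replicate 2 was 321 bp wide. Tested for E1 against E0 with both shRNAs, the region did not pass (difference 0.5 in the share of libraries, exact permutation p = 0.1; adjusted p = 0.967).

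Closer to the Sst start, the region chr16:23897951-23898733, 7.34 kb upstream, was called in 7 libraries as deposited. These were 1 of 2 shRNA-cFos E1, 2 of 3 shRNA-cFos E0, 3 of 3 shRNA-Ctrl E1 and 1 of 3 shRNA-Ctrl E0 libraries. The percentiles were 38.0 in shRNA-cFos E1 replicate 1, 4.45 and 44.0 in shRNA-cFos E0 replicates 1 and 2, 13.4, 15.8 and 47.1 in shRNA-Ctrl E1, against 33.0 in shRNA-Ctrl E0 replicate 1. At equal length the shRNA-Ctrl E0 peak alone stayed. shRNA-cFos E0 replicate 3 and shRNA-Ctrl E0 replicates 2 and 3 had no peak at all in the Sst window, the 1 window of the 5 that was empty in any library as deposited. Their lists were among the shorter ones (28417, 28391 and 29519 peaks), though the shortest list, of shRNA-Ctrl E0 replicate 1, had a peak there. The part of list length was not tested.

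No other region of the windows separated a pair of groups, as deposited (26 regions) or at equal length (8 regions). For E1 against E0 under shRNA-cFos, 0 were called in all E1 and no E0 libraries (1.96% of all regions as deposited, 3.39% at equal length), and 0 in all E0 and no E1 libraries (0.548% and 1.54%). Under shRNA-Ctrl, 0 were called in all E0 and no E1 libraries (0.0442% and 1.15%). Between the shRNAs at E1, 0 were called in all shRNA-cFos and no shRNA-Ctrl libraries (0.534% and 1.7%). At E0, 0 were called in all shRNA-cFos and no shRNA-Ctrl libraries (1.11% and 0.96%), and 0 the other way round (0.0217% and 0.418%). With 8 or 26 regions, shares of this size allow few or none. In the exact permutation test of E1 against E0, 0 regions had an unadjusted p under 0.05, as deposited or at equal length. As deposited, 9 regions were called in 1 library each, at score percentiles between 3.21 and 25.1. They were 34.6% of the 26 regions, close to the 37.9% of regions in the whole series that were called in 1 library.

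**Figure D3:**
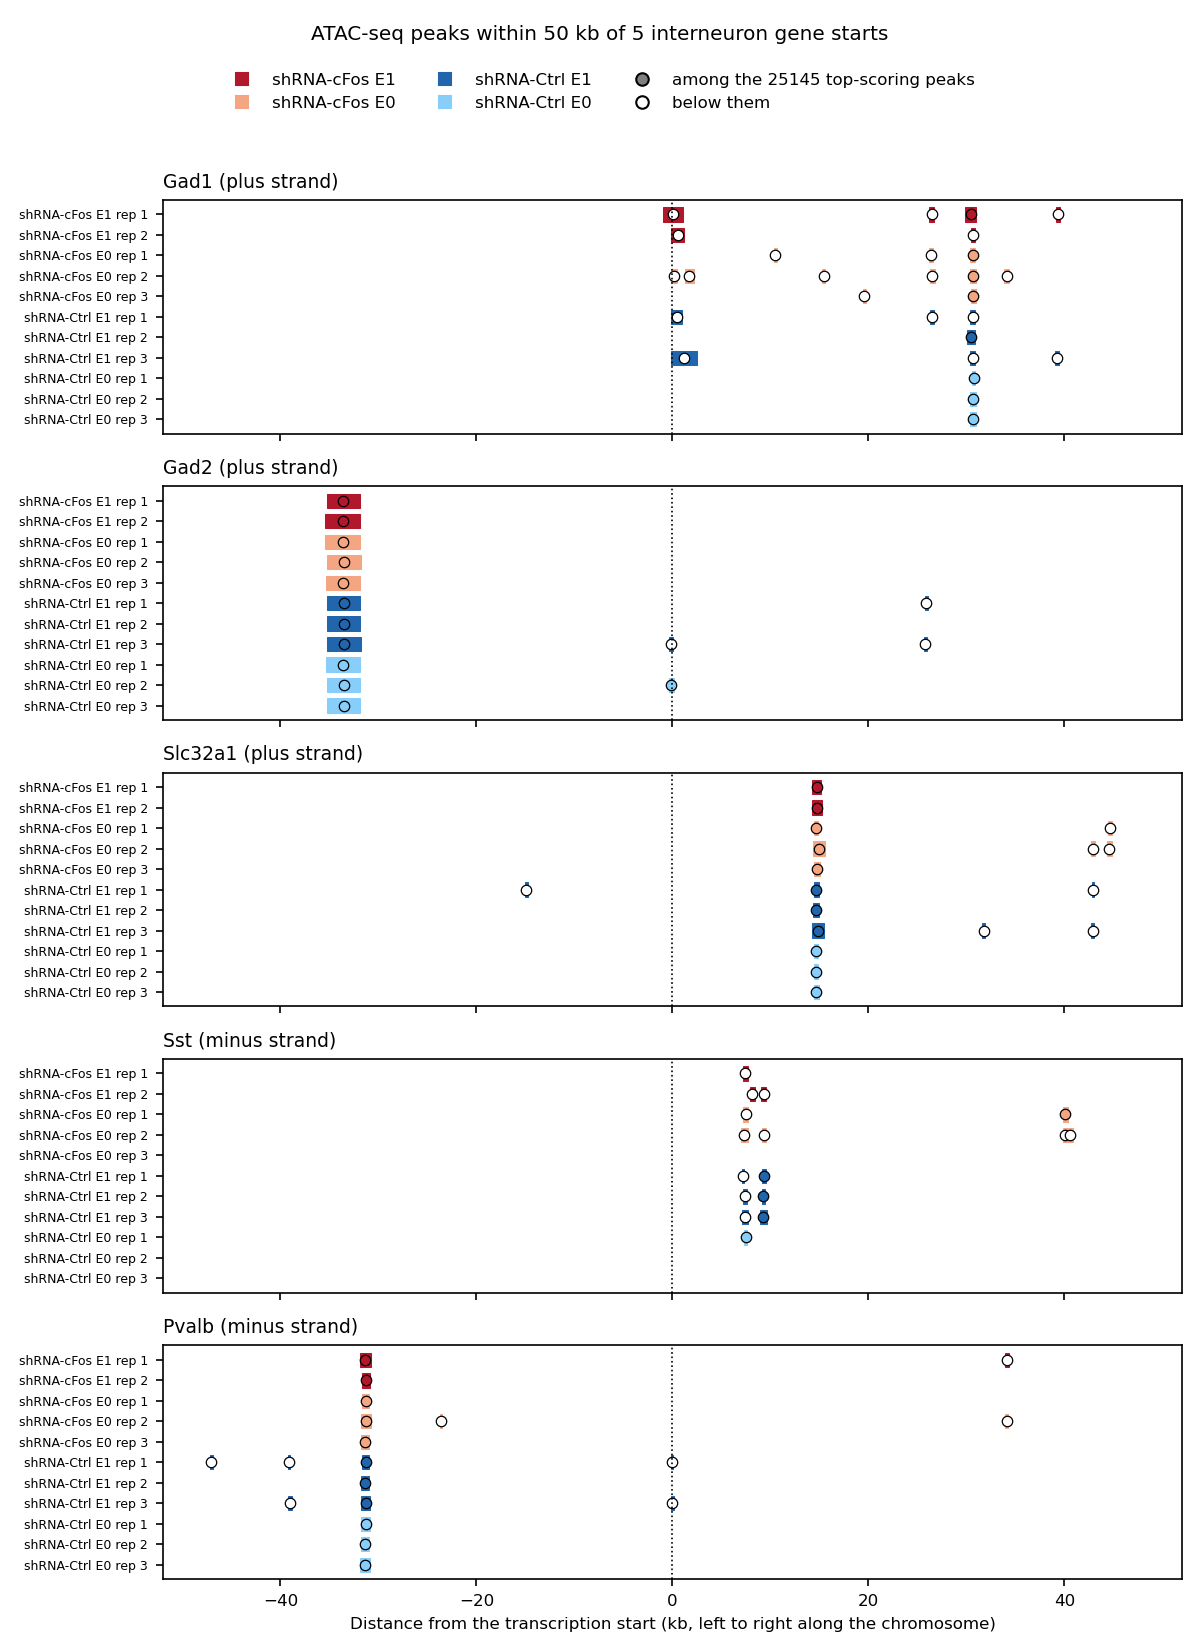
Position of each peak relative to the transcription start (kb, along the chromosome) for the 11 libraries in each of the 5 windows; bars show peak width, filled circles mark peaks among the 25145 highest-scoring of their list and open circles those below. Most filled circles fall in 4 columns away from the starts, and in the Sst window 3 of the 5 belong to shRNA-Ctrl E1.

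The number of peaks in each window bears on whether accessibility of the loci as a whole differed with neuronal activation or with the shRNA. As deposited, the 5 windows together held 9 and 7 peaks in shRNA-cFos E1, 9, 17 and 5 in shRNA-cFos E0, 14, 6 and 14 in shRNA-Ctrl E1, against 5, 5 and 4 in shRNA-Ctrl E0. The 3 highest numbers belonged to the 3 longest lists. At equal length the numbers were 4 and 3 in shRNA-cFos E1, 5, 4 and 4 in shRNA-cFos E0, 4, 5 and 4 in shRNA-Ctrl E1, against 5, 5 and 4 in shRNA-Ctrl E0. The groups then overlapped in every comparison.

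The Gad1 window held 0.5 ± 0.707 peaks in shRNA-cFos E1 (SD, n = 2) and 1.0 ± 0.0 in shRNA-cFos E0 (n = 3) at equal length. It held 0.333 ± 0.577 in shRNA-Ctrl E1, against 1.0 ± 0.0 in shRNA-Ctrl E0 (n = 3 each). The E1 minus E0 difference over both shRNAs was -0.583 peaks (two-sided exact permutation p = 0.08, adjusted p = 0.614 over 19988 windows). As deposited it was 0.333, in the other direction (exact permutation p = 0.84). The Sst window held 0 peaks in both shRNA-cFos E1 libraries and 1 in each shRNA-Ctrl E1 library, while at E0 both shRNA groups averaged 0.333 ± 0.577 (n = 3 each). The shRNA-cFos minus shRNA-Ctrl difference was -0.5 peaks (exact permutation p = 0.14, adjusted p = 1.0). The E1 effect was -0.333 under shRNA-cFos and 0.667 under shRNA-Ctrl, a difference of effects of -1.0 (exact permutation p = 0.14, adjusted p = 1.0). As deposited, the shRNA difference at Sst was 0.583, in the other direction (exact permutation p = 0.55), and the difference of effects was -2.17 (exact permutation p = 0.11, adjusted p = 0.719).

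The Slc32a1 and Pvalb windows held 1 peak in every library at equal length, so every difference was 0. With 100 kb on each side, the E1 minus E0 difference for Slc32a1 was 1.5 peaks (exact permutation p = 0.04, adjusted p = 0.483). As deposited, Slc32a1 had 1 and 1 peaks in shRNA-cFos E1, 2, 3 and 1 in shRNA-cFos E0, 3, 1 and 3 in shRNA-Ctrl E1, against 1 in each shRNA-Ctrl E0 library. Pvalb had 2 and 1 in shRNA-cFos E1, 1, 3 and 1 in shRNA-cFos E0, 4, 1 and 3 in shRNA-Ctrl E1, against 1 in each shRNA-Ctrl E0 library. The Gad2 window held 1 peak per library at equal length, apart from 2 in shRNA-Ctrl E0 replicate 2. The difference of effects as deposited was -2.33 for Slc32a1 (exact permutation p = 0.11, adjusted p = 0.719) and -1.83 for Pvalb (exact permutation p = 0.25, adjusted p = 0.728). None of the 15 tests, 3 for each window, as deposited or at equal length, passed after adjustment or had an unadjusted permutation p under 0.05. Either way 0.0% of all windows passed after adjustment in each of the 3 comparisons. With 200 relabellings the smallest p is 0.005, so a window can pass only if many windows share so low a p. Not passing therefore says little about any 1 window. Unadjusted permutation p-values under 0.05 were found for 6.86% of windows for E1 against E0 at equal length, 2.05% for shRNA-cFos against shRNA-Ctrl and 1.02% for the difference of effects (7.27%, 0.451% and 3.02% as deposited). A single comparison of 3 against 3 or 2 against 3 libraries allows no exact p under 0.1.

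**Figure D4:**
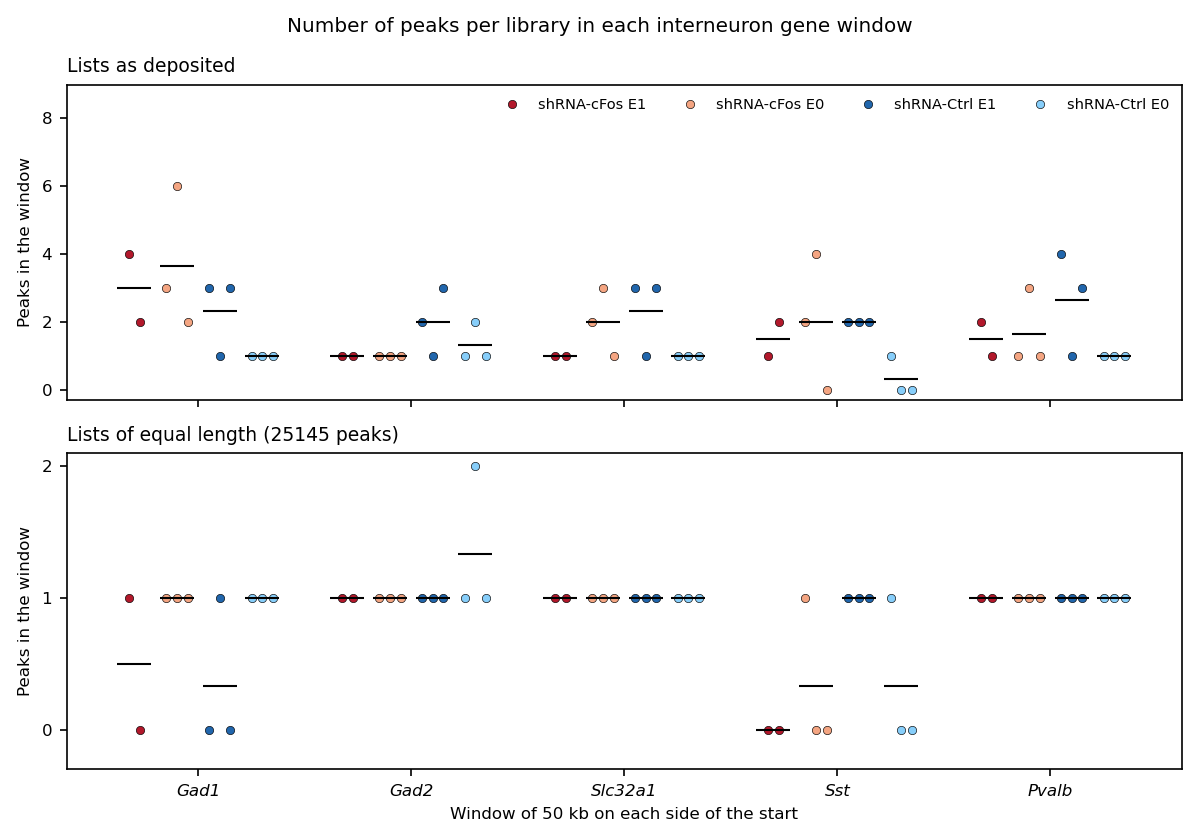
Number of peaks per library (points) and group mean (lines) in each window of 50 kb on each side of the start, with lists as deposited above and at equal length below. As deposited, shRNA-cFos E0 and shRNA-Ctrl E1 reach the highest numbers. At equal length most libraries have 1 peak in each window except that of Sst, where most have none.

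The loci were also set beside all 100 kb windows of the genome that held a peak. At equal length the mean over 11 libraries was 1.09 peaks for Gad2, 1.0 for Slc32a1 and Pvalb, 0.727 for Gad1 and 0.455 for Sst, where the median window had 1.0. For Sst, the lowest of the 5 loci, 75.0% of windows had as many or more, against 64.7% for Gad1, 55.0% for Slc32a1 and Pvalb and 49.0% for Gad2. As deposited, the Gad1 window had the most, 2.45 peaks, and 67.2% of windows had fewer.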

How the data were processed

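ATAC-seq libraries of 11 mice were used, grouped by shRNA and state as in their titles. The submitters' processing notes name Bowtie2 and build mm9, and the peak names carry the caller's name, MACS. For read filtering, the transposase shift and peak-calling settings, these sources hold no statement. In every deposited list the authors' score per peak, of no stated scale, ran from 50 to 3100. It served for ranks within a list and for a minimum of 100 as an alternative. Depth is unknown, so no counting interval is given.

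Chromosomes 1 to 19 and X were kept. Lists were shortened to 25145 peaks by score, ties in file order. Peak numbers in the 5 loci and in all 100 kb windows with a peak, and calls of all regions, were compared by two-sided exact permutation over 200 relabellings within the other factor (smallest p 0.005), with Benjamini-Hochberg adjustment over the whole table. The members and lists were chosen with earlier results of these data known. Regions are named where they lie at or nearest to a start, were called in all libraries, or separated 2 groups. The start calls were set beside list length after their values were seen. The permutation test and the merging of peaks were tried on simulated data, with 5 peaks added to each E1 library in planted windows. The 5 loci held at most 2 peaks per library at equal length. The simulation therefore does not show whether differences as small as those here would be found. RefSeq tables of GRCm38 gave strands, promoter sequences and neighbouring genes, whose coordinates were not moved to mm9. Other interneuron genes and cell type markers were not analysed here for lack of an mm9 annotation. Computation used Python 3.11.15 with pandas 2.3.3, numpy 2.4.6 and scipy 1.17.1, and drawing used matplotlib 3.10.9.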

Additional observations from a re-analysis of the deposited data

How the results depend on the processing

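The 15 differences in peak number were recomputed under 22 alternatives, and none of these values passed after adjustment (smallest adjusted p 0.483, for Slc32a1 E1 minus E0 of 1.5 peaks with 100 kb on each side, exact permutation p = 0.04). The direction turned in 18 of 330 values, and the cause was not tested. The Slc32a1 and Pvalb differences had no direction at equal length, so none of their values could turn. The 330 include them, and 18 of 330 is therefore no measure of how stable the directions were. With lists as deposited, E1 minus E0 was 0.333 for Gad1 and 0.333 for Gad2, shRNA-cFos minus shRNA-Ctrl was 0.583 for Sst, and the difference of E1 effects was -2.0 for Gad1 and -0.667 for Gad2. With a score of at least 100, the 3 Gad1 differences, in the same order, were 0.583, -0.417 and -1.5. With 100 kb on each side they turned for Gad2 (E1 minus E0 0.0833), Sst (E1 minus E0 -0.167) and Gad1 (shRNA difference -0.0833, difference of effects -0.167). With the lists whose names carry the added word, and without the 3 longest lists, both chosen after seeing the data, the Gad1 shRNA difference was -0.25 and its difference of effects -0.5. With 1 library left out, the Gad1 shRNA difference ran from -0.167 to 0.333 and its difference of effects from -0.333 to 0.667, both turning without shRNA-cFos E1 replicate 1. The Gad1 E1 minus E0 difference ran from -0.833 to -0.333, with an unadjusted exact permutation p of 0.04 without shRNA-Ctrl E1 replicate 2.

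No pairing of the samples by replicate number was seen in the calls. Deviations of calls from group means correlated at -0.0316 to 0.0505 for the same number and -0.0473 to 0.0265 for different numbers. With the replicate number as a block, the Gad1 E1 minus E0 difference was -0.583 (exact permutation p = 0.25). The Sst shRNA difference was -0.5 (exact permutation p = 0.5). The block leaves out libraries without a partner of the same number and exchanges labels only within pairs. It allows no p under 0.05, so it could call no difference, and that none was called is no check. The Sst pattern region met its E1 against E0 pattern with a score of at least 100, where the shRNA-Ctrl E1 replicate 2 peak scored 100.37. The region also met it with any 1 library left out, and without the 3 longest lists, which leaves 1 shRNA-Ctrl E1 library. Leaving libraries out cannot break a pattern of all and none, so it was no check of the pattern. The pattern counts under alternatives were added after seeing the data. Without shRNA-Ctrl E1 replicate 2, 1 region was called in no shRNA-Ctrl E1 and all shRNA-Ctrl E0 libraries, and without shRNA-cFos E1 replicate 1, 1 in no shRNA-cFos E1 and all shRNA-cFos E0 libraries, against 0 each.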
